A study of Mus musculus with 4 samples.

Results

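The binding of RYBP in FLK1+ mesoderm was read at the genes of 10 pluripotency factors: Pou5f1, Nanog, Sox2, Klf2, Klf4, Esrrb, Prdm14, Tfcp2l1, Zfp42 and Dppa3. The genes were chosen by name as factors of this network, with earlier results of these data known. They are 10 of 22219 protein-coding genes of the mouse annotation on the genome build mm9, and their loci, each the gene body with 5 kb upstream, held 11 of the 22409 regions where RYBP was called. A merged RYBP region lay in 7 of the 10 loci, compared with 57.0% of all loci. In each of these 7 loci 1 region had peaks of both replicates, compared with 38.8% of all loci. Nanog, Zfp42 and Dppa3 held no peak of either replicate.

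RYBP binding was mapped by ChIP-seq, the sequencing of DNA recovered by chromatin immunoprecipitation, with an antibody against DEDAF, another name of RYBP. The cells came from embryoid bodies (EBs), aggregates in which mouse embryonic stem (ES) cells differentiate, of wild-type genotype and strain C57Bl/6 X Sv129 at day 3.75 by the labels. The study's methods place this experiment somewhat later, and the series' design text names SCL, not RYBP, and a sort for cells with FLK1 and without PDGFRa. Of 4 samples, 2 were RYBP ChIP samples (replicates 1 and 2) and 2 were input samples, which are not analysed here. Nothing was perturbed, all samples share 1 genotype and stage, and no comparison between conditions exists. The peak lists hold neither expression nor read depth, so that the identity of the cells and any remaining undifferentiated cells could not be checked against marker genes, and no value here says whether a gene was on or off. The replicate lists held 14794 and 18154 peaks, and values are given for each replicate side by side (n = 2).

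RYBP is a subunit of non-canonical Polycomb repressive complex 1 (PRC1), an enzyme complex that attaches ubiquitin to histone H2A and that RYBP stimulates. Such complexes are found mainly at CpG islands, stretches around gene starts where the dinucleotide CpG is dense and mostly unmethylated. The pluripotency factors hold ES cells in an undifferentiated state: Pou5f1 (OCT4), Nanog and Sox2 form the core of the network, Klf2, Klf4, Esrrb, Tfcp2l1 and Prdm14 hold the naive state, and Zfp42 (REX1) and Dppa3 (STELLA) are widely used markers of it. Most of them are switched off as ES cells leave pluripotency and enter mesoderm, Sox2 going on in neural tissue and Klf2 and Klf4 having later roles in endothelium and other tissues.

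The start-site sequences show how differently CpG is spread over these genes. The mm9 sequence from 250 bases before to 50 bases after a start is given 5′ to 3′ for 6 of the genes, with every CpG in capitals. Sox2 and Klf4 are shown as CpG-dense starts under a region of both replicates, Pou5f1 as a less CpG-dense start under a region, and Nanog, Zfp42 and the outermost Esrrb start as starts without a region. The windows are chr3:34548677-34548976 (plus strand) with 25 CpG, chr4:55545298-55545597 (minus strand) with 40, chr17:35642732-35643031 (plus strand) with 11, chr6:122657257-122657556 (plus strand) with 4, chr8:44392314-44392613 (minus strand) with 11 and chr12:87701817-87702116 (plus strand) for Esrrb with 7.
Sox2: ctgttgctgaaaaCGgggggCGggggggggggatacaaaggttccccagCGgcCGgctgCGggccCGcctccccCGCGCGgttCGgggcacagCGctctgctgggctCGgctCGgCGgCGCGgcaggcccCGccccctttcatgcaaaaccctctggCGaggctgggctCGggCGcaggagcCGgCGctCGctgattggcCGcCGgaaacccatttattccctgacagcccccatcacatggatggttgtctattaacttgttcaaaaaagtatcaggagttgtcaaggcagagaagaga
Klf4: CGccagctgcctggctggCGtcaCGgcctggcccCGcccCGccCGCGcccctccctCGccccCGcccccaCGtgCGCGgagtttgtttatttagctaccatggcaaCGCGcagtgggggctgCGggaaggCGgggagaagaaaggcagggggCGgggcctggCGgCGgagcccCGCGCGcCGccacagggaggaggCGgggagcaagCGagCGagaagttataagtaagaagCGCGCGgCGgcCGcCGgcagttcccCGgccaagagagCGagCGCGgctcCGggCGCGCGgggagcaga
Pou5f1: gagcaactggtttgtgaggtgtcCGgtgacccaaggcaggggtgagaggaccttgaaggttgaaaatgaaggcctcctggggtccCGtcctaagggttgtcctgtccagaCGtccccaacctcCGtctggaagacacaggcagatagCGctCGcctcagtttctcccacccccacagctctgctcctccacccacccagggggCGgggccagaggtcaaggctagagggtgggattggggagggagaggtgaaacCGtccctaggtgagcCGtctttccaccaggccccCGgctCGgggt
Nanog: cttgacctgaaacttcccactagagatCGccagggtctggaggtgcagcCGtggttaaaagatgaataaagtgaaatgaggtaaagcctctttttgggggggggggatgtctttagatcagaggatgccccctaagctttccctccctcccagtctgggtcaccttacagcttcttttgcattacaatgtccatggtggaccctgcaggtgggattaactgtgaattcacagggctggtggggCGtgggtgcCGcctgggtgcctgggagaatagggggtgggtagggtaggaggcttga
Zfp42: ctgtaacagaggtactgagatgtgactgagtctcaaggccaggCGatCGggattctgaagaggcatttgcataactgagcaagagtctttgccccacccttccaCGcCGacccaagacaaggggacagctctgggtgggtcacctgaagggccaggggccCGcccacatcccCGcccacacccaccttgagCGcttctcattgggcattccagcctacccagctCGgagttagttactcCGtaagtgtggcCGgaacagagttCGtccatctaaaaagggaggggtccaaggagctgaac
Esrrb outermost start: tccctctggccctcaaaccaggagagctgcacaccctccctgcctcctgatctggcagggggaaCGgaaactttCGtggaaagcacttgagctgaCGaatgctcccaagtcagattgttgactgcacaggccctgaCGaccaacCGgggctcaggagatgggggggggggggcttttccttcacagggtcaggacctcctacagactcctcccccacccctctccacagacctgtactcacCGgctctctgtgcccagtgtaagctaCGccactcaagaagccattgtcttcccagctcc

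Over the 10 windows at the outermost starts, the median was 11 CpG, against 12 over the promoters of all protein-coding genes. Short motifs were searched on both strands of the same windows. The E-box CACGTG occurred at Klf4 alone among the 10 genes and in 7.79% of all promoters. The E2F core GCGGGA occurred at Klf2 and Klf4 and in 24.8% of all promoters. The octamer ATTTGCAT, a recognition sequence of POU factors, occurred at Zfp42 and in 1.73% of all promoters. Only exact matches were counted, and near matches, such as ttttgcat in the Nanog sequence above, were not. The SOX core CATTGT occurred at Nanog and Esrrb and in 10.6% of all promoters. The searched letters of the E-box hold 1 CpG and those of the E2F core hold 1 CpG, so that matches to them rise with CpG content, whereas none of the 4 motifs shares all its letters with another.

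Among the core factors, Sox2 carried the highest fold enrichment of all 10 genes, whereas Nanog had no peak. At the Pou5f1 start region the highest fold enrichment was above the median of all peaks in replicate 1 and below it in replicate 2. The fold enrichment is the caller's linear ratio of ChIP signal to local background for 1 peak, and its median over all peaks was 3.29 in replicate 1 and 3.60 in replicate 2. At Sox2 (chr3:34548927-34551383, plus strand), an SRY-related factor that binds DNA together with OCT4, the fold enrichment was 4.54 in replicate 1 and 5.82 in replicate 2. Both values were above every other peak at the 10 loci, and they stood at the 94.1 and 96.9 percentiles of all peaks of their lists. The −log10 q of these peaks was 6.02 and 8.45, against medians of 2.27 and 2.63.

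The Sox2 region was also the widest of the 11. It spanned 6133 bp (chr3:34546941-34553073), from 1986 bp before to 4146 bp after the outermost start, and so covered the whole gene, which has a single exon, and ran past both its ends. The median width of all merged regions was 766 bp, and the Sox2 region stood at the 98.9 percentile. The peaks of both replicates had almost the same extent there, 5831 bp wide in the first list and 6061 bp wide in the second. The region held 310 CpG, or 5.05 per 100 bp, and 8.59 CpG per 100 bp lay within 500 bp of the outermost start.

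At Pou5f1 (chr17:35642982-35647721, plus strand), which encodes the POU factor OCT4, a region of 2317 bp (chr17:35642858-35645174) ran from 124 bp before the start to 2192 bp into the gene. It was made of 2 narrow peaks in replicate 1, with fold enrichments of 3.60 and 3.24, and 1 broader peak in replicate 2, with 3.32. These stood at the 67.7 and 45.5 percentiles of all peaks in replicate 1 and at the 31.6 percentile in replicate 2. Their −log10 q was 2.64 and 1.86 in replicate 1 and 1.79 in replicate 2. The first peak of replicate 1 covered the outermost start, and the replicate 2 peak began 78 bp after it. Within the gene the region held 384 bp of coding sequence, 651 bp of untranslated exon and 1158 bp of intron, counted over all annotated transcripts. A second region, 196 bp wide and 4265 to 4460 bp upstream of the start (chr17:35638522-35638717), came from replicate 2 alone, at a fold enrichment of 3.67 (−log10 q 2.16).

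At Nanog (chr6:122657507-122664651, plus strand), a homeodomain factor, neither replicate had a peak in the gene or in the 5 kb upstream. The nearest region lay 34.6 kb downstream of the start, within the annotated body of Slc2a3, a glucose transporter gene, and came from replicate 2 alone with a fold enrichment of 2.97. Nanog had the lowest CpG density of the 10 outermost starts, 1.80 per 100 bp.

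**Figure D1:**
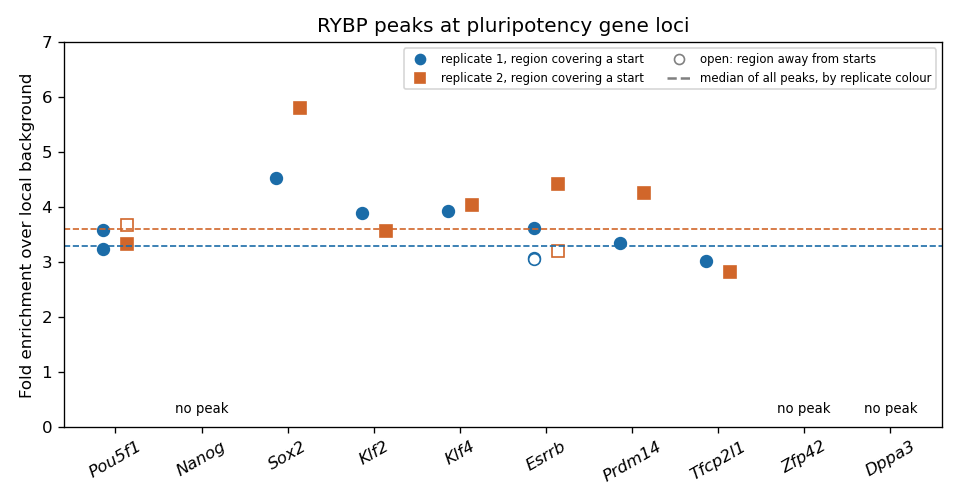
Fold enrichment over local background (y axis) of each peak in the loci of the 10 genes (x axis), with replicate 1 as blue circles, replicate 2 as orange squares, open symbols for regions away from annotated starts (2 of replicate 1 at Esrrb nearly coincide, at 3.08 and 3.06) and dashed lines for the median of all peaks of each replicate. Sox2 is the highest in both replicates, at 4.54 and 5.82, and 3 genes have no peak.

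Of the 5 genes of the naive circuit, every one had a region of both replicates at a start. Klf2 and Klf4 are zinc-finger factors of the Krüppel-like family. At Klf2 (chr8:74842932-74845555, plus strand) the fold enrichment was 3.89 in replicate 1 and 3.56 in replicate 2, and the region was 1319 bp wide (chr8:74842880-74844198), with 52 bp before the start and 1266 bp inside the gene. Only replicate 2 reached across the Klf2 start: the replicate 1 peak began 40 bp after it. The Klf2 region was the most CpG-dense of the 11, at 10.8 CpG per 100 bp, and 889 of its bases were coding. At Klf4 (chr4:55540013-55545347, minus strand) the values were 3.94 and 4.04, and the region of 4040 bp (chr4:55542947-55546986) ran from 1639 bp before to 2400 bp after the start. The Klf4 start was the most CpG-dense of the 10, at 11.6 per 100 bp, which is at the 96.9 percentile of all genes. CpG density and fold enrichment therefore did not rank the genes alike, since Sox2 exceeded Klf4 in both replicates with a lower density.

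At Esrrb (chr12:87702067-87862578, plus strand), an orphan nuclear receptor, 4 regions lay in a locus of 166 kb, the longest of the 10. Only 1 of them had peaks of both replicates. It was 2470 bp wide (chr12:87761903-87764372), covered the inner starts at 60527 and 60766 bp downstream of the outermost start, and had fold enrichments of 3.62 in replicate 1 and 4.42 in replicate 2. The start at 60527 bp is shared by 3 annotated transcripts. The CpG density at these inner starts was 5.49 and 5.99 per 100 bp, compared with 2.30 at the outermost start, where there was no peak.

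An inner Esrrb start at 109000 bp had 4.70 CpG per 100 bp and no peak within 2.5 kb. The other 3 Esrrb regions were each called in 1 replicate. One lay in an intron 42.5 kb from the outermost start (replicate 2, fold enrichment 3.21), another in an intron 64599 to 65738 bp from it (replicate 1, 3.08), and the last in untranslated exon sequence near the end of the gene (replicate 1, 3.06). Their CpG density was 1.19, 0.702 and 1.34 per 100 bp, lower than in the region at the inner starts, which had 5.43.

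At Prdm14 (chr1:13103538-13117244, minus strand), a PR-domain protein that restrains DNA methylation and FGF signalling in naive cells, the fold enrichment was 3.35 in replicate 1 and 4.26 in replicate 2. The region of 3662 bp (chr1:13115222-13118883) ran from 1639 bp before to 2022 bp after the start, although only replicate 1 reached across it: the replicate 2 peak began 43 bp after the start. At Tfcp2l1 (chr1:120524522-120581744, plus strand; named Tcfcp2l1 in the annotation), a grainyhead-like factor and target of LIF signalling, the values were 3.02 and 2.83. These were the lowest fold enrichments of the 7 start regions, at the 24.8 and 1.30 percentiles of all peaks, whereas the −log10 q of 2.23 and 2.17 stood at the 48.6 and 39.5 percentiles. The medians of all peaks on chromosome 1 were 3.20 and 3.44, so that the Tfcp2l1 peaks were below the median of their own chromosome in both replicates.

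Ordered by the mean of the start region over both replicates (highest peak of each, ± SD, n = 2), Sox2 had 5.18 ± 0.90, Esrrb 4.02 ± 0.57, Klf4 3.99 ± 0.07, Prdm14 3.81 ± 0.64, Klf2 3.73 ± 0.23, Pou5f1 3.46 ± 0.19 and Tfcp2l1 2.93 ± 0.14. From Esrrb to Pou5f1 each gene overlapped its neighbour in this order in the range of its replicate values. Sox2 lay above and Tfcp2l1 below all others without overlap. With 2 replicates no test of these differences was made. Replicate 2 gave the higher value in Sox2, Klf4, Esrrb and Prdm14 and the lower one in Klf2, Pou5f1 and Tfcp2l1, while its list had the higher median over all peaks.

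**Figure D2:**
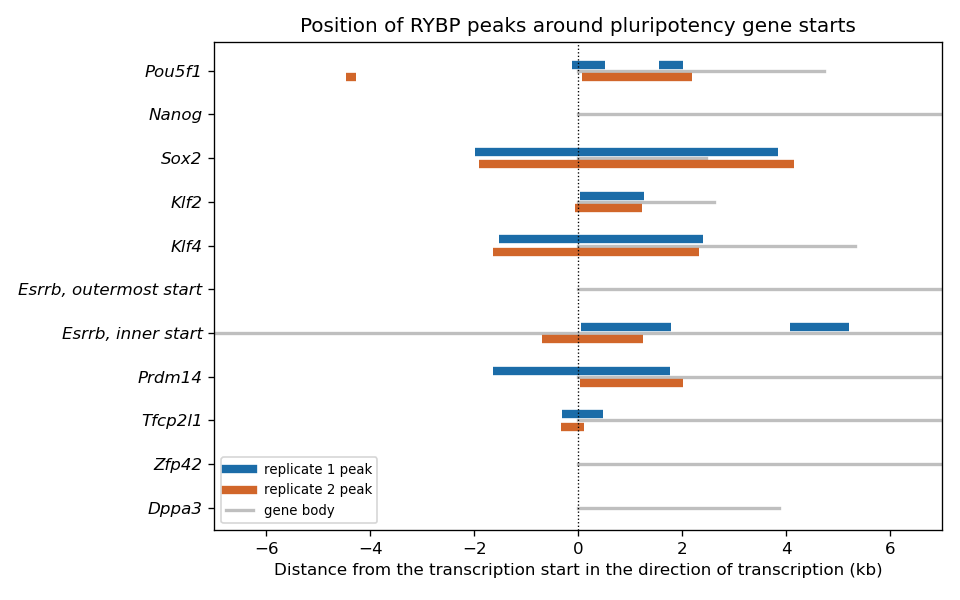
Position of the peaks of replicate 1 (blue) and replicate 2 (orange) by distance in kb from the outermost annotated start (x axis, in the direction of transcription), 1 gene a row, with the gene body in grey and a second row for Esrrb at its inner start 60527 bp downstream. In 7 genes peaks of both replicates overlap each other within 2.5 kb of a start, with the widest at Sox2. A start base lies under peaks of both replicates only in Sox2, Klf4, Tfcp2l1 and Esrrb, there at the inner start 60766 bp downstream. The rows of Nanog, Zfp42 and Dppa3 are empty.

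The naive markers Zfp42 and Dppa3 had no peak in either replicate. Zfp42 (chr8:44380422-44392363, minus strand) encodes a zinc-finger protein. Its start lay in a stretch of 3559 kb without any RYBP region (chr8:42460839-46019427), which held the outermost starts of 11 protein-coding genes, 1 of them CpG-rich, that is with at least 3 CpG per 100 bp. The nearest region was 1627 kb away, upstream, near the cadherin gene Fat1.

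Dppa3 (chr6:122576428-122580290, plus strand) encodes a protein that shields maternal DNA from demethylation in the zygote. It shares a neighbourhood of chromosome 6 with Nanog and with Gdf3, a TGF-beta family ligand also expressed in ES cells. The outermost starts of these 3 genes, none of them CpG-rich, lay together in a region-free stretch of 132 kb (chr6:122559817-122692117). At its edge a region of 239 bp, 16.6 kb upstream of the Dppa3 start and 289 bp inside Gdf3, was called in replicate 1 alone, with a fold enrichment of 3.70. The next regions with peaks of both replicates lay at the outermost start of Slc2a3, with 3.54 and 4.50, and at Foxj2, a forkhead gene, with 3.14 and 4.06. These starts had 7.39 and 8.59 CpG per 100 bp.

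**Figure D3:**
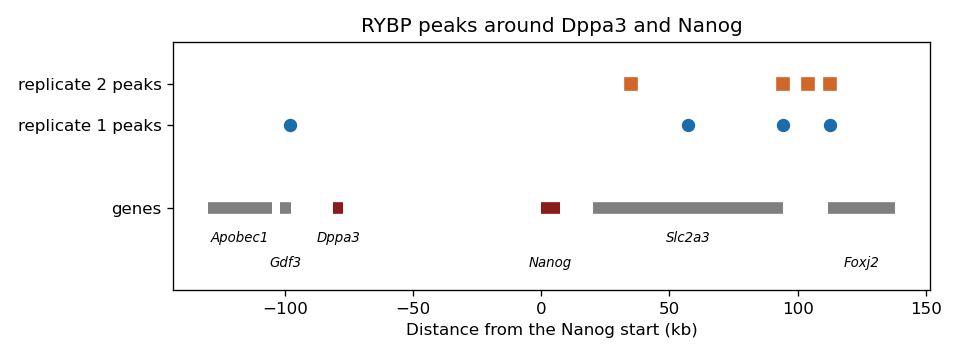
Protein-coding genes (bars, with Dppa3 and Nanog in red) and RYBP peaks of replicate 1 (blue circles) and replicate 2 (orange squares) by distance in kb from the Nanog start (x axis). No peak lies between the replicate 1 peak 97.7 kb before the Nanog start, at Gdf3, and the replicate 2 peak 34.6 kb after it.

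All 11 regions can be sorted by whether they covered an annotated start. In the loci of the 10 genes 7 regions did, and all 7 had peaks of both replicates. Over the genome this held for 76.1% of the 8798 regions that covered a protein-coding start. The other 4 regions, 1 at Pou5f1 and 3 at Esrrb, covered no start and were called in a single replicate, 2 in each. Of the 13611 regions that covered no protein-coding start, however near one lay, 23.5% had peaks of both replicates. Over all merged regions the share was 44.2%.

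At start sites, counted as 2.5 kb on each side of any annotated start, a region lay at 7 of the 10 genes, against 53.3% of all genes, and a region of both replicates at the same 7, against 36.7%. The base of the outermost start itself was covered by a merged region in 6 genes, Esrrb being the exception, against 36.1% of all genes. In Pou5f1, Klf2 and Prdm14 the peak of a single replicate covered it. These shares depend on CpG density. CpG was counted in the 1001 bp centred on the outermost start. Of genes whose outermost start was CpG-rich 81.8% had a region at any of their starts, and of those with a CpG-poor one 15.9% did. The share with a region of both replicates was 16.8% at 2 to 3 CpG per 100 bp, 32.6% at 3 to 4 and 84.9% at 10 and more.

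The 5 genes with CpG-rich outermost starts, Sox2, Klf2, Klf4, Prdm14 and Tfcp2l1, all had a region. Of the 5 with CpG-poor outermost starts, Pou5f1 and Esrrb had one. Pou5f1 lay just below the dividing line, with 30 CpG in 1001 bp, and the Esrrb region lay at the CpG-rich inner starts. This split depends on the window. With 250 bp on each side Pou5f1 had 3.59 CpG per 100 bp, Zfp42 3.39 and Prdm14 3.19, so that Zfp42 was CpG-rich without a region. The 3 genes without a region had 18 (Nanog), 28 (Zfp42) and 27 (Dppa3) CpG in the 1001 bp window, and an inner start of Dppa3, 343 bp downstream, had 30, the same number as Pou5f1. Pou5f1 and Dppa3 thus had equal highest CpG counts over their starts and differed in whether a region was called. At these starts the GC content was 60.3% for Pou5f1 and 50.1% for Dppa3. The ratio of CpG observed to that expected from C and G content went the other way, 0.335 for Pou5f1 and 0.483 for Dppa3.

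The range of CpG density at the outermost start was 2.30 to 11.6 per 100 bp for the 7 genes with a region and 1.80 to 2.80 for the 3 without, so that the groups overlapped through Esrrb. With the most CpG-dense start of each gene the ranges were 3.0 to 11.6 and 1.90 to 3.0, touching at Pou5f1 and Dppa3. The GC content at the outermost start ranged from 52.0 to 69.7% for the genes with a region and from 48.6 to 49.4% for those without. Taken start by start the GC contents overlapped. The Esrrb starts at 0 and 109000 bp had 57.2 and 54.9% and no region, whereas a Pou5f1 start at 1445 bp had 49.2% and lay under one. Over all genes, the share with a region was 21.5% (95% interval 20.1 to 23.0) at 1 to 2 CpG per 100 bp, where Nanog lay, and 32.2% (30 to 34.5) at 2 to 3, where Pou5f1, Esrrb, Zfp42 and Dppa3 lay. It was 58.1% at the density of Prdm14, 77.6% at that of Tfcp2l1, 89.6% at that of Klf2, 92.6% at that of Sox2 and 97.7% at that of Klf4. These exact binomial intervals cover counting error only, and neighbouring genes are not independent.

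**Figure D4:**
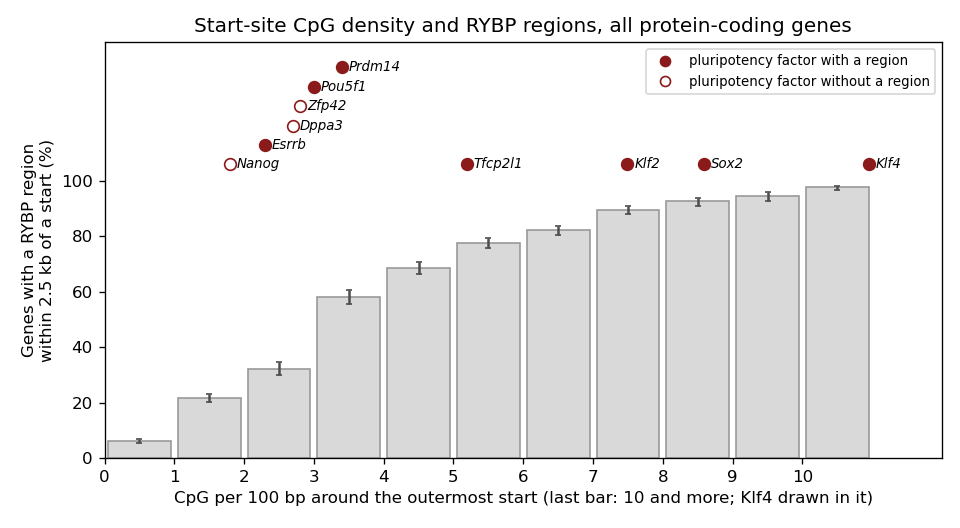
Share of all 22219 protein-coding genes with a RYBP region within 2.5 kb of a start (y axis, bars, with exact 95% binomial intervals) by CpG density around the outermost start (x axis, CpG per 100 bp). The 10 pluripotency factors stand above the bars at their own density, filled where a region was called and open where not, and their height carries no value; Nanog, Dppa3 and Zfp42, at 1.80, 2.70 and 2.80, are open.

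A longer locus has more room for a region, and all loci were therefore put into 4 equal classes by length. Among the shortest (up to 9.73 kb) 30.8% held a region, and of the 3 pluripotency factors there Sox2 and Klf2 did and Dppa3 did not. In the next class (to 20.5 kb) 55.5% did, and so did Pou5f1, Klf4 and Prdm14 but not Nanog and Zfp42. Esrrb and Tfcp2l1 were in the longest class, where the share was 77.0%.

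Other genes of the network were counted from lists chosen by textbook role, with no test, and in each list the genes were ordered by their lower replicate fold enrichment at a start and the first 3 are named. Over all genes 53.3% had a region at a start and 36.7% one of both replicates. Of genes with a CpG-rich outermost start 81.8% had a region at a start. Of 29 other naive or general pluripotency genes, 18 of them with CpG-rich outermost starts, 22 had a region at a start and 16 a region of both replicates. By the lower replicate value the first 3 were Lin28b, which blocks maturation of let-7 (5.54 in replicate 1 and 6.47 in replicate 2), the T-box factor Tbx3 (5.02 and 8.50) and the LIF receptor gene Lifr (5.23 and 4.75). Lin28b and Tbx3 thus exceeded Sox2 in both replicates and Lifr in replicate 1. The 7 genes without a region, named after their values were seen, lay on both sides of the CpG-rich line. Zfp281, Nr0b1 and Tcl1 had 9.89, 4.50 and 3.20 CpG per 100 bp, and Dppa5a, Dppa4, Dppa2 and Il6st had 2.90, 1.90, 1.60 and 1.40.

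Of 13 genes of formative or primed pluripotency, the state that follows the naive one, all 13 had a region of both replicates at a start, against 36.7% of all genes. The outermost starts of 11 of the 13 were CpG-rich, a class in which 81.8% of all genes had a region of at least 1 replicate. Over all genes, the share with one of both replicates was 32.6% at 3 to 4 CpG per 100 bp and 84.9% at 10 and more. By the lower replicate value Grhl2, an epithelial grainyhead factor (5.16 and 5.63), the zinc-finger gene Zic5 (5.12 and 5.91) and the POU gene Pou3f1 (5.04 and 5.84) came first. In replicate 2 the highest of the list was the DNA methyltransferase gene Dnmt3a, named after its value was seen, with 6.17, against 4.99 in replicate 1. Of 10 primitive streak and early mesoderm factors, 8 of them with CpG-rich outermost starts, 9 had a region at a start and 8 one of both replicates. Gsc (4.21 and 5.81), Mesp1 (4.21 and 6.84) and Evx1 (4.16 and 5.09), all transcription factors of the streak and early mesoderm, came first by the lower value.

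Of 10 germline genes, whose outermost starts were all CpG-rich, 4 had a region at a start and 3 one of both replicates. Of all genes with CpG-rich outermost starts 81.8% had a region. The germline starts had 3.20 to 7.69 CpG per 100 bp. Over all genes, the share with a region was 58.1% at 3 to 4 CpG per 100 bp and 89.6% at 7 to 8. With a region of both replicates it was 32.6% and 64.4%. By the lower value the first germline genes were Ddx4 (3.78 and 6.75), Dazl (3.69 and 4.65) and Tdrd1 (3.07 and 3.99 at the start). The median CpG density at the outermost start was 3.20 per 100 bp for the 10 pluripotency factors, 3.90 for the other naive or general genes, 7.89 for the formative or primed genes, 4.85 for the streak and mesoderm factors and 5.64 for the germline genes, against 4.10 over all genes. The median of the highest fold enrichment at the locus was 3.62 and 4.04 for the 7 pluripotency factors with a region, against 3.53 and 3.92 over all loci with a peak in that replicate.

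**Figure D5:**
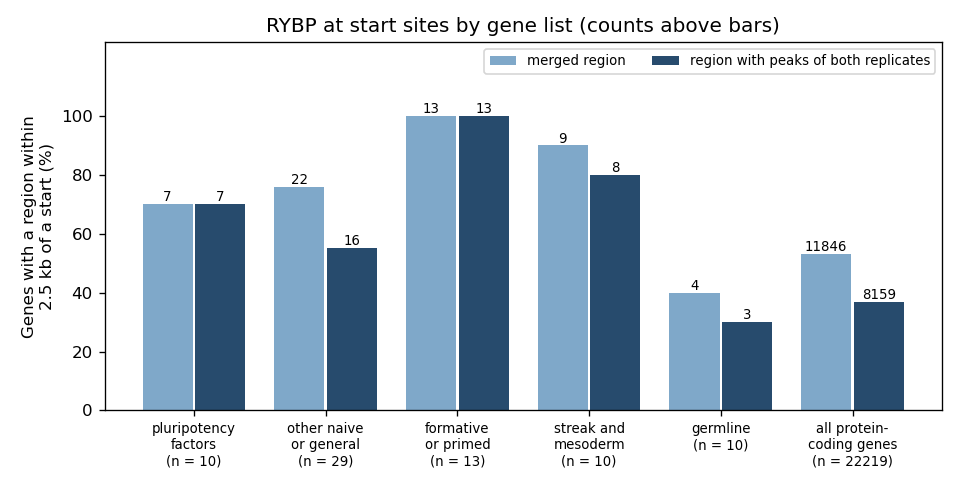
Share of genes with a RYBP region within 2.5 kb of a start (y axis, percent, from 0) for the 10 pluripotency factors, 4 further gene lists and all protein-coding genes (x axis), with light bars for any merged region, dark bars for a region with peaks of both replicates, and counts above the bars. For the pluripotency factors both bars stand at 7 of 10, and for the formative or primed genes at 13 of 13.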

How the data were processed

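RYBP ChIP-seq was analysed from 2 replicate peak lists and a merged region list on mm9. According to the submitters' processing notes, Bowtie 1.1.2b, MACS2 2.0.10 and bedtools were used; the methods of the study describe the removal of duplicate reads and broad peak calling. Each list deposited by the authors gives per peak a fold enrichment (a linear ratio) over local background. Columns of −log10 p-value and −log10 q-value, as deposited, go with each peak. A deposited score was not used. The merged list, which has positions only, was rebuilt as the union of both replicate lists (22409 identical regions, with replicate 2 starts moved by 1 bp), so a merged region can come from 1 replicate.

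Regions were set against the GENCODE annotation of the same build with overlaps of at least 1 bp, in Python 3.11.15 with pysam 0.24.0, after tests on simulated peaks. Intervals are exact (Clopper-Pearson, scipy 1.17.1) at 95%. Tfcp2l1 was found through its RefSeq synonym. Peak lists carry no read depth, so none entered, and the precision of each fold enrichment is unknown. Samples were grouped by their labels. The design has a single group of 2 ChIP samples, and no test was made. Whether both replicates are separate differentiations rests on the series' design text. All 10 factors were named, and in each further list the 3 genes with the highest smaller replicate fold enrichment at a start, and genes without a region where 5 or fewer. The genes and lists were chosen with earlier results of these data known. Alternatives covered peak thresholds, overlap, window and locus sizes, CpG windows and each replicate alone. A further start-site sequence is not reported here.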

Additional observations from a re-analysis of the deposited data

How the results depend on the processing

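The count of pluripotency loci or start sites with a region was 7 under every alternative run, except that it was 6, without Esrrb, when the outermost start alone was used; with either replicate alone it was 7. The share of all loci with a region was 57.0%, and became 47.3% with a −log10 q of at least 2, 38.8% with regions of both replicates, and 43.8 to 53.5% with 1 replicate left out. The share at all start sites was 53.3%, and became 44.7%, 36.7% and 40.4 to 50.4% in the same order. The median CpG density of the 10 outermost starts was 3.20 per 100 bp, and became 3.49 with 250 bp on each side, 2.90 with 1 kb on each side and 4.30 with the highest value over all starts. With 250 bp on each side Zfp42, which had no region, became CpG-rich, at 3.39. The median over the 7 loci of the highest fold enrichment, 4.04, was 3.62 to 4.04 with 1 replicate left out, the lower value without replicate 2. No paired analysis was possible because the result comes from no test: the input samples, numbered like the ChIP samples, are not analysed here. The absence of a peak means only that none was called at the authors' threshold, and signal below it was not measured here. The study reports the read depth of each RYBP sample, which did not enter here.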
